A study of Saccharomyces cerevisiae with 6 samples.

Results

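The proteasome genes of budding yeast were examined in a strain that lacks BAS1, set against its reference strain FY4. Bas1 is a Myb-type activator of genes for making purines and histidine. Messenger RNA was measured on 6 Affymetrix arrays, 3 of the BAS1 deletion strain and 3 of wild-type FY4, all from cells in exponential batch growth in minimal medium with glucose. Whether the 3 arrays of a strain came from separate cultures is not in the labels, and p-values here reflect only the spread among these samples, which may be technical. Neither do the labels name a marker put in place of BAS1. Members were chosen by gene symbol in the array annotation (PRE1 to PRE10, PUP1 to PUP3, every RPN gene, RPT1 to RPT6, SCL1 and SEM1), which found 35 genes, each with 1 probe set, among 5449 tested genes. Of these, 33 encode subunits: 7 of the alpha ring, 7 of the beta ring, 10 of the base and 9 of the lid. The other 2 match by name only: RPN4 encodes the transcription factor of the proteasome genes and RPN14 an assembly chaperone of the base.

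The proteasome is the protease that degrades proteins tagged with ubiquitin. Its barrel-shaped core particle stacks alpha rings, which gate the entrance, on beta rings, which carry the proteolytic sites inside. The regulatory particle caps the barrel: its base unfolds substrates with a ring of ATPases, and its lid removes the ubiquitin chain. In yeast, Rpn4 activates most of the subunit genes and is itself short-lived because the proteasome degrades it, a loop known to raise subunit transcription when proteasome capacity is short.

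As a check of the labels, BAS1 read 4.86, 4.76 and 4.86 in the deletion arrays and 11.18, 10.96 and 11.14 in the wild-type arrays, in log2 intensity, with the deletion values under the background level of 6.23. Median levels over the 5449 tested genes ran from 11.10 to 11.14 in the deletion arrays and from 10.94 to 11.00 in the wild-type arrays, so the deposited values carry a shift of 0.15 between strains in the array median. All 16 probe sets for cytosolic 18S and 25S ribosomal RNA had lower means in the deletion strain, with a median log2 difference of -3.09. In a separate limma fit with adjustment over all 10928 probe sets, 14 were called lower. Spike-in control RNAs grouped the arrays differently: deletion replicate 1 with wild-type replicates 1 and 2 had low spike levels (array means of 7.78 to 7.94, log2), and the other 3 arrays high ones (8.59 to 8.83). Of 4 marker genes of alpha cells, 4 rose in the deletion strain, with summed intensities of 3156 to 3434 in deletion arrays and 1351 to 1524 in wild-type arrays, though 2 rose and 1 fell after quantile normalization. MF(ALPHA)1 read 9.71 to 10.12 in the deletion arrays and lay under background in all wild-type arrays. Of 7 marker genes of a cells, ASG7 rose and BAR1 fell, with sums of 43411 to 54128 in deletion arrays and 44738 to 54308 in wild-type arrays. The part of these shifts in the results below was not tested.

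The subunit genes changed little, and not in 1 direction. The test was limma on log2 intensities with Benjamini-Hochberg adjustment over all 5449 genes and a threshold of 0.05. It called 8 of 33 subunit genes higher in the deletion strain (24.2%, where 39.6% of all tested genes were called higher) and 5 lower (15.2%, where 19.8% of all were called lower), and 20 did not pass. With any 1 array left out, 6 to 11 were called higher and 0 to 3 lower, where 2709 to 3020 of all 5449 genes were called in either direction. The median log2 difference was 0.10 over the subunit genes and 0.11 over all tested genes. None of the 33 reached a 2-fold change, which 9.52% of all tested genes did, and none passed an absolute log2 difference of 0.5, which 26.3% of all did. In a culture, less RNA per cell and fewer cells that express a gene cannot be told apart.

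The differences spanned -0.31 to 0.40, with an SD of 0.19 over the 33 subunit genes and of 0.67 over all tested genes. For 28 of the 33, the whole 95% interval of the difference lay within 0.5 log2 of 0, a change under 1.41-fold in either direction, and the same held for 54.2% of all tested genes. The median over the subunit genes was 12.69, 12.72 and 12.65 in the deletion arrays and 12.51, 12.59 and 12.57 in the wild-type arrays. Every subunit value in every array lay between 11.26 and 13.25, far above background and under the top tested value of 15.16. Without overlap, 11 subunit genes had all deletion arrays above all wild-type arrays, as did 43.7% of all tested genes, and 9 had them all below, as did 23.7%.

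**Figure D1:**
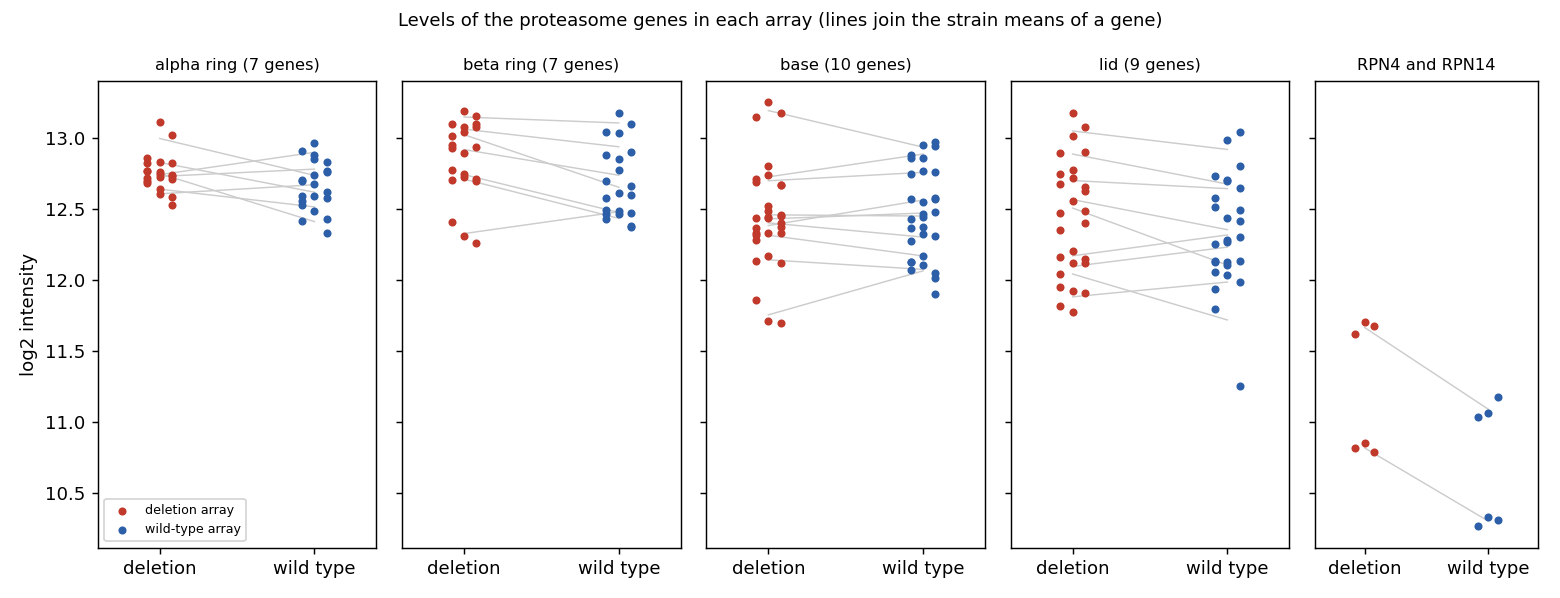
Log2 intensity (vertical axis) of each proteasome gene in the 3 deletion arrays (red, left of each panel) and the 3 wild-type arrays (blue, right), by position in the complex; grey lines join the strain means of a gene. Lines of the subunit panels run both up and down by small steps, while RPN4 and RPN14 stand higher in all 3 deletion arrays.

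The size and sign of the subunit median depended on how the arrays were scaled, while it stayed close to the median of all genes. With each array centred on the median of its tested genes, the subunit median was -0.055 and that of all genes -0.04, and calls turned to 3 higher and 12 lower subunit genes, where 27.2% of all genes were called higher and 33.1% lower. The 3 higher genes, PRE8, PRE1 and RPN12, and all 5 genes called lower on the deposited values kept their call there, and no subunit gene was called in opposite directions. Within the low-spike arrays alone, 1 deletion array against 2 wild-type arrays, limma called 1 subunit gene higher and 0 lower (20.2% and 9.01% of all genes), with 5 at an unadjusted p under 0.05. Within the high-spike arrays, 2 against 1, it called 6 higher and 0 lower (33.1% and 11.3% of all genes), with 11 at an unadjusted p under 0.05. Quantile normalization gave 5 higher and 11 lower (24.9% and 35.5% of all genes), and cyclic loess gave 7 and 8 (30.1% and 29.4%). The subunit median minus that of all genes was -0.015 as deposited, -0.015 after centring, 0.033 after quantile normalization and 0.039 after cyclic loess.

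**Figure D2:**
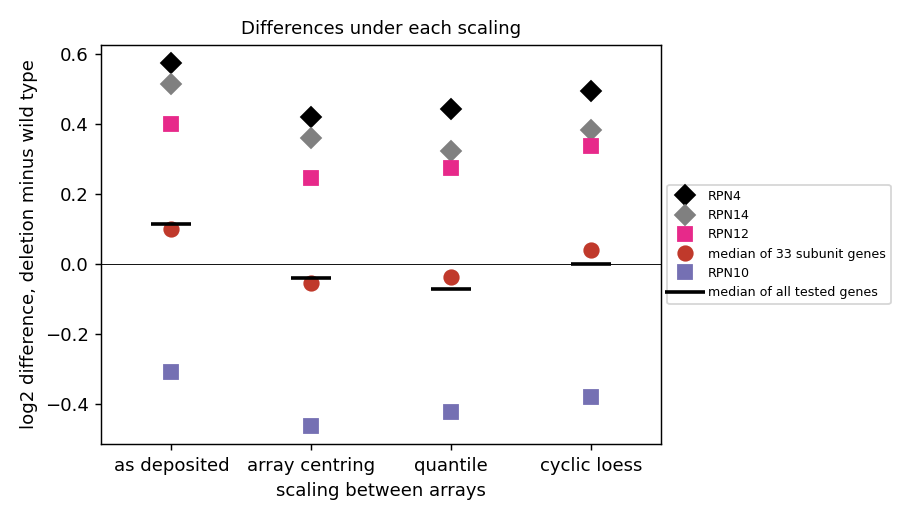
Log2 difference, deletion minus wild type (vertical axis), under 4 scalings of the arrays (horizontal axis) for RPN4, RPN14, RPN12, RPN10 and the median of the 33 subunit genes, with the median of all tested genes as a bar. The subunit median stays within 0.04 of the all-gene bar, RPN4 stays between 0.42 and 0.57, and RPN10 stays below 0.

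The alpha ring forms the gate of the core particle, and its 7 genes gave 2 calls higher, 1 lower and 4 that did not pass (39.6% and 19.8% of all genes were called higher and lower), with a median log2 difference of 0.12. After centring, 1 was called higher and 3 lower (27.2% and 33.1% of all genes). PRE8, the alpha2 subunit, read 12.76, 12.74 and 12.74 in the deletion arrays and 12.42, 12.49 and 12.33 in the wild-type arrays. It rose 1.26-fold without overlap (log2 difference 0.34, SE 0.054, limma adjusted p = 0.0023). SCL1, the alpha1 subunit, read 12.83, 12.83 and 12.82 in the deletion arrays and 12.56, 12.67 and 12.62 in the wild-type arrays. The deletion arrays lay above and within 0.01 of each other, and SCL1 rose 1.16-fold (log2 difference 0.21, SE 0.048, adjusted p = 0.0096), a difference of 0.055 after centring (adjusted p = 0.38). PRE6, the alpha4 subunit, read 12.77, 12.72 and 12.73 in the deletion arrays and 12.90, 12.96 and 12.83 in the wild-type arrays. Its deletion arrays all lay below, and it fell by 0.16 on the log2 scale, 1.12-fold (adjusted p = 0.037). The PRE6 call held only without wild-type replicate 3 among the fits that left out 1 array, whose differences ran from -0.19 to -0.13.

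PRE9 encodes alpha3, the alpha subunit that yeast can live without. It read 12.85, 13.11 and 13.02 in the deletion arrays and 12.59, 12.85 and 12.77 in the wild-type arrays, so the lowest deletion value just cleared the highest wild-type value. Its difference of 0.26 (SE 0.094) missed the threshold (adjusted p = 0.053). It passed without deletion replicate 1 (adjusted p = 0.031) or wild-type replicate 2 (adjusted p = 0.043). It also passed with array weights (adjusted p = 0.017), a variance trend (0.043) and the replicate number as a block (0.011). It did not pass after centring (0.10, adjusted p = 0.33), quantile normalization (0.15, adjusted p = 0.18) or cyclic loess (0.22, adjusted p = 0.056). PRE5, PRE10 and PUP2, the other alpha genes, differed by 0.12, -0.05 and -0.06, with overlapping arrays.

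The beta ring holds the proteolytic sites, and its 7 genes gave 4 calls higher and 1 lower (39.6% and 19.8% of all genes), with a median of 0.18. After centring, 1 was called higher and 1 lower (27.2% and 33.1% of all genes). PRE1, the beta4 subunit, read 12.95, 13.04 and 13.07 in the deletion arrays and 12.58, 12.78 and 12.60 in the wild-type arrays. That was a rise of 1.29-fold with no overlap (log2 difference 0.37, SE 0.070, adjusted p = 0.0046). PRE7, the beta6 subunit, read 12.71, 12.72 and 12.70 in the deletion arrays and 12.46, 12.47 and 12.37 in the wild-type arrays, tight in both strains. It rose 1.21-fold (log2 difference 0.28, SE 0.047, adjusted p = 0.0029). PRE4, the beta7 subunit, read 12.77, 12.74 and 12.71 in the deletion arrays and 12.43, 12.61 and 12.38 in the wild-type arrays, where wild-type replicate 2 came closest to the deletion arrays. It rose 1.20-fold (0.27, SE 0.070, adjusted p = 0.017). PUP3, the beta3 subunit, read 12.93, 12.89 and 12.93 in the deletion arrays and 12.70, 12.85 and 12.66 in the wild-type arrays, again with wild-type replicate 2 near the deletion arrays. It rose 1.13-fold (0.18, SE 0.062, adjusted p = 0.045). After centring, PRE1 was still called (0.22, adjusted p = 0.021), while PRE7 (0.12, adjusted p = 0.059), PRE4 (0.11, adjusted p = 0.18) and PUP3 (0.026, adjusted p = 0.72) were not. Without deletion replicate 1, deletion replicate 2 or wild-type replicate 1 the PRE4 adjusted p was 0.052, 0.0501 and 0.058, and PUP3 was called only without wild-type replicate 2, with differences from 0.14 to 0.24.

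None of the 3 genes for proteolytically active beta subunits was called higher and 1 was called lower (39.6% and 19.8% of all genes). PRE3, the beta1 subunit with caspase-like activity, differed by 0.12 (95% interval -0.019 to 0.27, adjusted p = 0.11), and was called without wild-type replicate 2 (adjusted p = 0.040). PRE2, the beta5 subunit with chymotrypsin-like activity, read 13.10, 13.19 and 13.15 in the deletion arrays and 13.04, 13.17 and 13.10 in the wild-type arrays, values that overlap throughout. Its interval ran from -0.091 to 0.17. PUP1, the beta2 subunit with trypsin-like activity, read 12.41, 12.31 and 12.26 in the deletion arrays and 12.49, 12.48 and 12.47 in the wild-type arrays. It fell 1.11-fold (log2 difference -0.15, SE 0.053, adjusted p = 0.044), with all deletion arrays below, and among the fits without 1 array it was called only without deletion replicate 1. The difference between active and other beta genes was not tested.

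**Figure D3:**
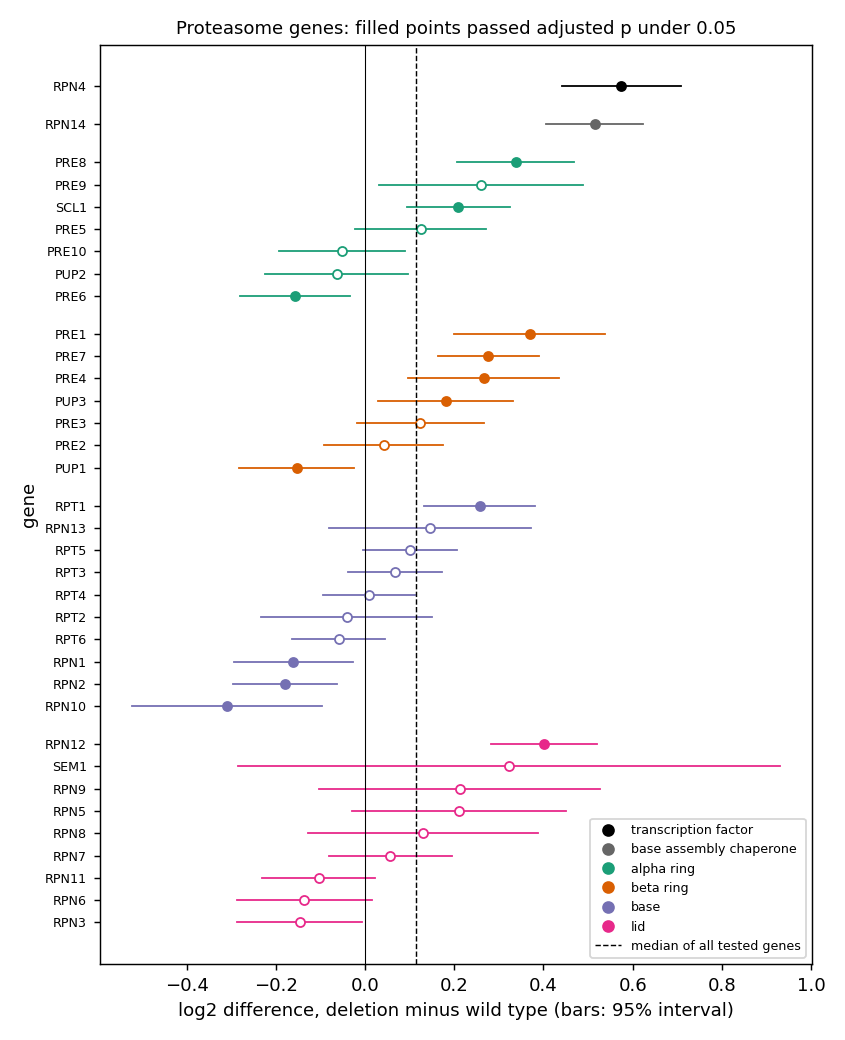
Log2 difference, deletion minus wild type (horizontal axis), of the 35 genes by class, with 95% intervals; filled points passed an adjusted p under 0.05 and the dashed line is the median of all tested genes, 0.11. Subunit genes spread on both sides of 0 between -0.31 (RPN10) and 0.40 (RPN12), and RPN4 and RPN14 lie at 0.57 and 0.51.

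The base unfolds substrates and feeds them into the core. Its 10 genes gave 1 call higher and 3 lower (39.6% and 19.8% of all genes), with a median of -0.016. After centring, 5 were called lower, where 33.1% of all genes were, and the other 5 did not pass. Among the 6 ATPase genes, RPT1 alone was called: it read 13.15, 13.25 and 13.18 in the deletion arrays and 12.88, 12.95 and 12.97 in the wild-type arrays, a rise of 1.20-fold (log2 difference 0.26, SE 0.051, adjusted p = 0.0057) that was 0.10 after centring (adjusted p = 0.15). RPT4 read 12.44, 12.48 and 12.45 in the deletion arrays and 12.43, 12.44 and 12.48 in the wild-type arrays, interleaved to within 0.06. Its difference was 0.0086, with an interval of -0.095 to 0.11, yet after centring it was -0.15 and passed as lower (adjusted p = 0.042). RPT6 read 12.69, 12.74 and 12.67 in the deletion arrays and 12.75, 12.76 and 12.76 in the wild-type arrays. All its deletion arrays lay below by a narrow margin, and the difference of -0.059 (interval -0.16 to 0.044) did not pass (adjusted p = 0.27), but did after centring (-0.21, adjusted p = 0.0081). RPT2, RPT3 and RPT5 differed by -0.041, 0.067 and 0.10 and did not pass either.

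The base genes called lower were those of its scaffolds and of a ubiquitin receptor. RPN10, a receptor for ubiquitin chains, read 11.86, 11.71 and 11.70 in the deletion arrays and 12.13, 12.17 and 11.90 in the wild-type arrays. Its deletion arrays lay below with a narrow gap to wild-type replicate 3, a fall of 1.24-fold (log2 difference -0.31, SE 0.088, adjusted p = 0.023). RPN2, a scaffold subunit, read 12.33, 12.44 and 12.37 in the deletion arrays and 12.57, 12.55 and 12.57 in the wild-type arrays, and fell 1.13-fold (log2 difference -0.18, SE 0.048, adjusted p = 0.018). RPN1, the other scaffold, read 12.71, 12.80 and 12.67 in the deletion arrays and 12.86, 12.86 and 12.94 in the wild-type arrays, and fell 1.12-fold (log2 difference -0.16, SE 0.055, adjusted p = 0.045).

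Each of these 3 calls was lost in some fits without 1 array, though the differences stayed below 0. All 3 were called lower after centring (adjusted p = 0.0034 for RPN10, 0.0015 for RPN2 and 0.0049 for RPN1). They were also called after quantile normalization and cyclic loess, but not with all probe sets in the fit. In the fits without 1 array, RPN10 was called only without deletion replicate 1 or wild-type replicate 3, with differences from -0.39 to -0.26. RPN1 was called only without deletion replicate 2 (range -0.20 to -0.13), and RPN2 was called without deletion replicate 2, wild-type replicate 2 or wild-type replicate 3 (range -0.21 to -0.15). RPN13, another ubiquitin receptor, differed by 0.15 and did not pass (adjusted p = 0.22), but was called higher without wild-type replicate 2 (adjusted p = 0.018).

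The lid removes ubiquitin before degradation, and 1 of its 9 genes passed, as higher (39.6% of all genes), with a list median of 0.13. After centring, 1 was called higher and 3 lower (27.2% and 33.1% of all genes). RPN12 had the largest difference of any subunit gene, reading 12.47, 12.56 and 12.49 in the deletion arrays and 12.06, 12.12 and 12.13 in the wild-type arrays. It rose 1.32-fold with no overlap (log2 difference 0.40, SE 0.049, adjusted p = 7.2e-04), and it stayed called under every alternative run with at least 2 arrays a strain, with adjusted p of 0.0064 after centring. RPN3 lay at the other end of the lid, at 12.16, 12.20 and 12.15 in the deletion arrays and 12.25, 12.28 and 12.42 in the wild-type arrays. All its deletion arrays lay below, but the difference of -0.15 missed the threshold (adjusted p = 0.068) on the deposited values and passed after centring (-0.30, adjusted p = 0.0081).

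RPN11, the deubiquitinase of the lid, differed by -0.10 (interval -0.23 to 0.023, adjusted p = 0.13). RPN6 differed by -0.14 (adjusted p = 0.10) and was called lower without wild-type replicate 1 (adjusted p = 0.041). Both were called lower after centring, at -0.26 and -0.29. RPN7 differed by 0.057 (adjusted p = 0.42), with overlapping arrays. RPN5 differed by 0.21 (SE 0.099, adjusted p = 0.11, and 0.030 with array weights) and RPN8, the catalytically inactive partner of Rpn11, by 0.13 (SE 0.11, adjusted p = 0.33). After centring RPN5 differed by 0.056 (adjusted p = 0.64). RPN5, RPN8 and RPN9 had wide errors that followed the arrays: in each, replicate 1 was lowest within both strains. With the replicate number as a block, RPN5 and RPN9 were called higher (adjusted p = 0.045 and 0.032) and RPN8 was not (0.11). RPN9 read 12.35, 12.72 and 12.62 in the deletion arrays and 12.13, 12.43 and 12.49 in the wild-type arrays, so the strains overlapped (log2 difference 0.21, SE 0.13, adjusted p = 0.20). Deletion replicate 1 was the lowest deletion array for 16 of 33 subunit genes, and wild-type replicate 1 the lowest wild-type array for 19. The share of all tested genes with these orders was not counted. The median of all tested genes was also lowest in deletion replicate 1 (11.10, against 11.14 and 11.13), but among wild-type arrays in replicate 3.

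SEM1 encodes the smallest lid subunit and had the least certain value. It read 11.95, 11.77 and 12.40 in the deletion arrays and 11.79, 12.11 and 11.26 in the wild-type arrays, with SDs of 0.32 and 0.43, where the largest of any other subunit gene were 0.19 in each strain. Its difference was 0.32 with an interval of -0.28 to 0.93 (adjusted p = 0.30), so a change of either sign was not detectable. SEM1 is 270 bases long, and the 243 tested genes of at most 300 bases deviated in the same arrays. Their median deviation from the strain mean was 0.21 in deletion replicate 3 and -0.18 in deletion replicate 2, and -0.19 in wild-type replicate 3, where all other genes had medians of at most 0.026 in size in those arrays.

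RPN4 was higher in the deletion strain than in wild type by more than any subunit gene. It read 11.62, 11.70 and 11.67 in the deletion arrays and 11.03, 11.06 and 11.17 in the wild-type arrays, with a gap of over 0.4 between the strains. The rise was 1.49-fold (log2 difference 0.57, SE 0.055, 95% interval 0.44 to 0.71, limma adjusted p = 2.6e-04). By exact permutation of the 6 arrays, two-sided, p was 0.1, and with 3 arrays a strain no smaller p is possible. The interval of RPN4 lay wholly above those of 26 of the 33 subunit genes, and its difference above all 33. The call held under every alternative run with at least 2 arrays a strain, from 0.42 after centring to 0.62 without wild-type replicate 3, and within the spike levels it was 0.57 in low-spike and 0.51 in high-spike arrays. In each of these fits 1 strain has a single array, assumed to vary like the other strain, so they are given as sizes only.

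RPN14, a chaperone that guides assembly of the base ATPases and is absent from the finished complex, moved by a similar size. It read 10.82, 10.85 and 10.79 in the deletion arrays and 10.27, 10.34 and 10.31 in the wild-type arrays, well apart. The rise was 1.43-fold (log2 difference 0.51, SE 0.045, adjusted p = 1.7e-04), and it was 0.36 after centring (adjusted p = 9.8e-04).

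**Figure D4:**
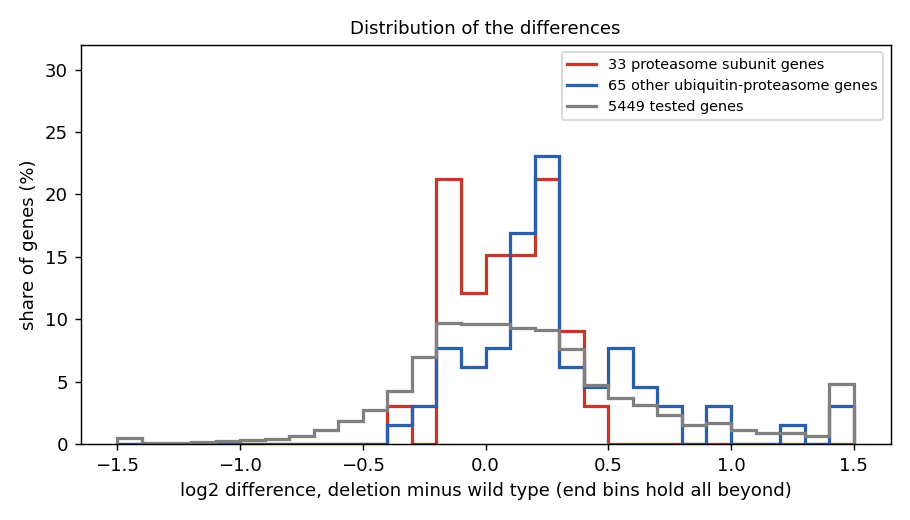
Share of genes (vertical axis, percent) by log2 difference, deletion minus wild type (horizontal axis, bins of 0.1), for the 33 subunit genes, 65 other ubiquitin-proteasome genes and all 5449 tested genes. The subunit genes fill a narrow band from -0.31 to 0.40, inside the wider spread of all tested genes.

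Other genes of the ubiquitin-proteasome pathway were taken from lists by role, 65 genes in all. Of these, 40 were called higher and 4 lower, with a median log2 difference of 0.23, or 18 and 11 with a median of 0.074 after centring. Over all tested genes, 39.6% were called higher and 19.8% lower on the deposited values, with a median of 0.11, and 27.2% and 33.1% after centring, with a median of -0.04. The share of pathway genes called higher was above that of all genes on the deposited values and close to it after centring. The share called lower was below that of all genes on both scales. After quantile normalization 20 were called higher and 10 lower (24.9% and 35.5% of all genes). Cyclic loess gave 24 and 8 (30.1% and 29.4%). Assembly chaperones of the proteasome gave 5 of 9 higher and none lower, and 3 and none after centring. Beside these, 39.6% and 27.2% of all genes were called higher, and 19.8% and 33.1% lower. The unadjusted limma p was under 0.05 for 6 of the 9, and for 3518 of all 5449 tested genes. NAS2, a base chaperone, rose 1.54-fold (log2 difference 0.62, SE 0.064), and UMP1, which matures the core and is degraded as its first substrate, rose 1.48-fold (0.57, SE 0.16). TMA17, a stress-inducible base chaperone, rose 1.92-fold (0.94, SE 0.27, adjusted p = 0.023). For TMA17 and UMP1, deletion replicate 2 was the lowest deletion array (10.89 and 11.46). Wild-type replicate 3 was their lowest wild-type array (9.66 and 10.61). Tested genes of at most 300 bases also deviated low in these arrays. The TMA17 call was lost without deletion replicate 1, deletion replicate 3 or wild-type replicate 1 (adjusted p from 0.051 to 0.069), and the UMP1 call without deletion replicate 1 (0.054) or deletion replicate 3 (0.063). PBA1 rose 1.16-fold and was not called after centring.

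Proteins that bind the assembled proteasome gave 5 of 7 genes higher and 1 lower (39.6% and 19.8% of all genes). SPG5, known for a role at the proteasome in stationary phase, rose 1.74-fold (0.80, SE 0.045, adjusted p = 2.7e-05), STS1, which acts in bringing proteasomes to the nucleus, 1.44-fold, and HUL5, a proteasome-bound ubiquitin ligase, 1.26-fold. BLM10, an alternative cap of the core particle, fell 1.26-fold (log2 difference -0.33, SE 0.069, adjusted p = 0.0069). After centring the counts were 3 higher and 2 lower, where 27.2% and 33.1% of all genes were called.

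Genes that control Rpn4 gave 5 of 6 higher and none lower, and 3 higher and 1 lower after centring. On those scales 39.6% and 27.2% of all genes were called higher, and 19.8% and 33.1% lower. The transcription factors Hsf1, Yap1, Pdr1 and Pdr3 are known activators of RPN4, and the list also holds UBR2 and MUB1. UBR2 was called higher (0.14, adjusted p = 0.034) but differed by -0.010 after centring (adjusted p = 0.87). MUB1 differed by -0.047 (adjusted p = 0.53) and was called lower after centring (-0.20, adjusted p = 0.022). PDR1 rose 1.57-fold (0.65, SE 0.042, adjusted p = 4.6e-05), YAP1 1.44-fold (0.53, SE 0.073) and HSF1 1.34-fold (0.42, SE 0.042), and these 3 were also called after centring. PDR3 rose 1.17-fold, and 0.074 log2 after centring (adjusted p = 0.21), and after quantile normalization its difference was -0.050.

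The 4 ubiquitin genes split. UBI4, the stress-inducible polyubiquitin gene, read 13.53, 13.58 and 13.56 in the deletion arrays and 12.21, 12.45 and 12.40 in the wild-type arrays, a rise of 2.30-fold (log2 difference 1.20, SE 0.071, adjusted p = 3.3e-05). The genes that make ubiquitin fused to a ribosomal protein were not higher: RPL40B fell 1.18-fold and RPS31 1.12-fold (adjusted p = 0.0051 and 0.021), and RPL40A differed by -0.058 (adjusted p = 0.46). RPS31 was called only without deletion replicate 3 among the fits that left out 1 array, with differences from -0.18 to -0.14.

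Of 12 genes for ubiquitin-activating and ubiquitin-conjugating enzymes, 10 were called higher and none lower, with 4 and none after centring. Of all genes, 39.6% and 27.2% were called higher on those scales, and 19.8% and 33.1% lower. The difference of 1 gene was below 0 and did not pass. The list had a median gene length of 600 bases. On the deposited values, the 908 tested genes of at most 600 bases had a median difference of 0.23, where all tested genes had 0.11. The part of gene length in these rises was not tested. UBC11 rose 3.51-fold (log2 difference 1.81, SE 0.11, adjusted p = 3.3e-05), UBC8, which acts in the glucose-induced breakdown of fructose-1,6-bisphosphatase, 1.69-fold, and UBC1 1.59-fold. UBC5 and UBC4 encode near-identical enzymes of bulk protein turnover. UBC5 read 12.70, 12.36 and 12.65 in the deletion arrays and 11.08, 11.16 and 10.62 in the wild-type arrays. It rose 3.07-fold (1.62, SE 0.16, adjusted p = 3.2e-04). Deletion replicate 2 and wild-type replicate 3 were lowest within their strains, as in the medians of genes of at most 300 bases. UBC4 rose 1.23-fold (0.30, SE 0.054, adjusted p = 0.0037), 0.14 after centring (adjusted p = 0.057), and how far the paired probe sets cross-react was not tested.

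Of 9 genes for shuttle factors and the Cdc48 complex, 5 were called higher and none lower (39.6% and 19.8% of all genes), with 1 and 2 after centring (27.2% and 33.1% of all genes). Without passing, 2 had all deletion arrays below all wild-type arrays, an order that 23.7% of all tested genes showed. UFD1 rose 1.37-fold, DOA1 1.20-fold, UFD2 1.18-fold and NPL4 1.13-fold, and CDC48 itself, the segregase, rose by 0.15 log2 (adjusted p = 0.029), a difference of -4.7e-04 after centring. UFD2 was called only without deletion replicate 1 among the fits without 1 array (differences from 0.16 to 0.29), and NPL4 was not called without deletion replicate 1 or wild-type replicate 1 (adjusted p = 0.061 and 0.071). NPL4 differed by -0.013 after quantile normalization. Deubiquitinase genes gave 9 of 18 higher and 1 lower, UBP13 (39.6% and 19.8% of all genes), with 3 and 3 after centring, under the 27.2% and 33.1% of all genes. UBP11 rose 1.88-fold (0.91, SE 0.069), UBP5 1.50-fold and OTU1 1.32-fold. UBP11 and SKG1 are the tested genes that flank BAS1 on its chromosome, and an effect of the deletion at that site on UBP11 was not tested. UBP9 rose 1.30-fold, was not called without deletion replicate 2, deletion replicate 3, wild-type replicate 1 or wild-type replicate 3 (adjusted p from 0.052 to 0.066), and differed by -0.086 after quantile normalization.

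Among the subunit genes, shorter genes tended to have the higher differences. Across the 33 genes the log2 difference and the log2 of gene length in RefSeq had a Pearson correlation of -0.47, with a Spearman correlation of -0.47, and -0.42 and -0.43 without SEM1. Over all 5449 tested genes these were -0.10 and -0.13. These correlations run across genes measured on the same 6 arrays and are a description. RPN1 and RPN2, of 2982 and 2838 bases, were the longest and both were called lower. RPN10, at 807 bases, had the lowest difference, and PRE6 and PUP1, of 765 and 786 bases, were lower too. Core genes had a median length of 764.5 bases and a median difference of 0.15, and regulatory particle genes 1290 bases and 0.057. Within the spike levels, the core median was 0.14 and 0.20 and the regulatory median 0.0042 and 0.063.

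**Figure D5:**
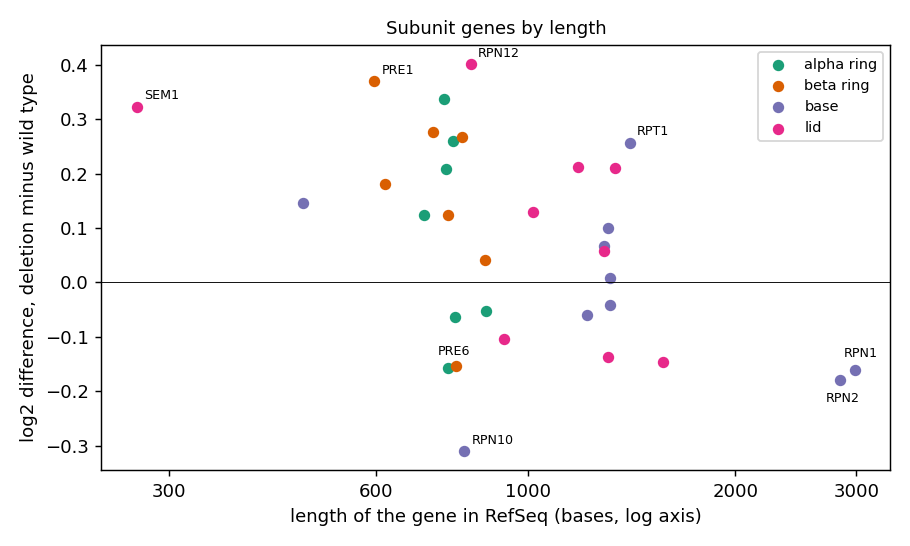
Log2 difference, deletion minus wild type (vertical axis), of the 33 subunit genes against gene length in bases (horizontal log axis), coloured by class. SEM1, PRE1 and RPN12 lie high among the shorter genes and RPN1 and RPN2 low at the long end, with RPN10 lowest at 807 bases.

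The members are scattered over 13 of 16 chromosomes. In only 2 cases did a single tested gene separate members: PRE4 and RPN12 flank RET2, and RPT4 and RPN8 flank GCD1. PRE4 and RPN12 both rose (0.27 and 0.40), and RPT4 and RPN8 did not pass (0.0086 and 0.13). The 68 tested genes next to a member had a median difference of 0.076 and an SD of 0.48, and 26 were called higher, 19 lower and 5 changed at least 2-fold, where all tested genes gave 39.6%, 19.8% and 9.52%. GPM2, beside RPN4, rose by 1.55 log2 (adjusted p = 1.8e-05), and OSH2 on the other side differed by 0.076 (adjusted p = 0.26).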

How the data were processed

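Per the submitters' processing notes, the authors used R 2.8.0, affy and RMA. They deposited linear intensities, 1 for each probe set on each array, which carry no detection call and in which RMA shrinks differences between dim probe sets. These intensities were put on the log2 scale. Among 10928 probe sets, 5498 had 1 gene of the RefSeq table (assembly R64), and the brightest probe set stood for each gene, giving 5449 genes. No table of sequences was used here, so the planned search of promoters for the PACE element was not made, and no coordinates are printed because no source used here names the build of that annotation.

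The comparison of strains used limma 3.58.1 under R 4.3.3, through lmFit and eBayes with strain as the sole term, and Benjamini-Hochberg adjustment over 5449 genes, with a threshold of 0.05. Standard errors and 95% intervals use the moderated variance. As background level served the 95th percentile of the 1746 probe sets annotated to a gene that is not in that S. cerevisiae table, which was 6.23 over the 6 arrays. The fit was tested on simulated data first. No 2 arrays held identical values. The number of arrays limits the precision.

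Members, lists, tests and alternatives were chosen with earlier results of these data known. Values in every array are given for RPN4, RPN14, SEM1, the extremes of each class, other members that were called and 5 more that were not. Of each other list at most the 4 largest called changes are given, beside genes that were named after their values were seen (RPL40A, UBR2, MUB1, UBC4, CDC48, UBP13). Alternatives were array centring, quantile normalization, cyclic loess, a filter on dim genes, all probe sets in the fit, the mean of a gene's probe sets, a variance trend, array weights, no moderation, the replicate number or spike level as a block, each spike level alone, a threshold of 0.01 and leaving out each array.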

Additional observations from a re-analysis of the deposited data

How the results depend on the processing

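The number of subunit genes called lower, 5, moved most: 12 after array centring, 11 after quantile normalization, 8 after cyclic loess, 3 without moderation, 2 with the replicate block, and 0 with all probe sets in the fit, at the threshold of 0.01 or in low-spike or high-spike arrays alone (0 to 3 with 1 array left out, 0 without deletion replicate 3). At an unadjusted p under 0.05, limma had 15 of 33 subunit genes in either direction, beside 3518 of all 5449 tested genes. The number called higher, 8, was 3 after centring, 5 after quantile normalization and 1 in low-spike arrays alone (6 to 11 with 1 array left out). The subunit median, 0.10, was -0.055 after centring, -0.038 after quantile normalization, 0.039 after cyclic loess and 0.035 in low-spike arrays alone. Other pathway genes called higher, 40, numbered 18 after centring, 20 after quantile normalization, 24 after cyclic loess, 22 at 0.01 and 13 in low-spike arrays alone (27 to 36 with 1 array left out), and those called lower, 4, numbered 11, 10, 8, 2 and 0 in that order, and 1 in high-spike arrays alone. All tested genes called fell to 1593 in low-spike arrays alone, where 2 arrays stand against 1. A stricter threshold can only lower a count. For the other settings the cause was not tested.

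Sign changes after centring were PRE5 (-0.030), PRE3 (-0.031), PRE2 (-0.11), RPT3 (-0.087), RPT4 (-0.15), RPT5 (-0.055), RPN13 (-0.0089), RPN7 (-0.098) and RPN8 (-0.025). After quantile normalization they were PRE2 (-0.071), RPT3 (-0.051), RPT4 (-0.11), RPT5 (-0.038), RPN7 (-0.060), PDR3 (-0.050), NPL4 (-0.013) and UBP9 (-0.086), and after cyclic loess RPT3 (-0.0014) and RPT4 (-0.047). RPT2 was 0.017 with array weights, 0.017 without deletion replicate 1 and 0.013 without wild-type replicate 3 (-0.093 to 0.017 with 1 array left out). RPT4 was -0.0041 with spike level as a block, -0.012 in high-spike arrays alone, -0.0046 without deletion replicate 2 and -0.0022 without wild-type replicate 1 (-0.0046 to 0.024 with 1 array left out), and PRE2 was -0.010 in low-spike arrays alone. RPN4, RPN14 and RPN12 kept direction and call under all alternatives run with at least 2 arrays a strain. Same-numbered arrays deviated together for replicate 1 and in opposite ways for replicates 2 and 3 (correlations 0.44, -0.51 and -0.44 across genes). The deviations are from the mean of the 3 arrays of a strain, so these correlations depend on each other. They cannot decide whether the numbers pair samples. With the replicate block 10 subunit genes were called higher and 2 lower, where 2130 and 1010 of all 5449 tested genes were. PRE9 (adjusted p = 0.011), RPN5 (0.045) and RPN9 (0.032) were among those called higher, and PUP3 was not called.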
